A study of Mus musculus with 18 samples.

Results

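The transcripts described here belong to 10 genes of interleukin-6 (IL-6) family signalling in mouse liver: the ligand Il6, the receptor chains Il6ra, Il6st, Lifr and Osmr, the kinases Jak1 and Jak2, the transcription factor Stat3, and the inhibitors Socs1 and Socs3. They were found by gene symbol in the 3 gene count tables, and all 10 were listed in each table, which held 18108 (Pico), 18051 (V4) and 19424 (TruSeq) genes and 21018 in all. The animals were male C57/B6J mice, 12 weeks of age, injected intraperitoneally with saline or with IL-1β at 20 µg/kg, and the livers were taken 4 h later. IL-1β is an inflammatory cytokine to which hepatocytes answer with acute-phase proteins. The treated mice are I9579, I9582 and I9583 (I for IL-1β) and the control mice U9574, U9575 and U9576 (U for the saline group). The RNA of each mouse was divided between 3 library kits, which gave 18 libraries: Pico (stranded total RNA with enzymatic removal of ribosomal cDNA), V4 (unstranded, poly(A)) and TruSeq (stranded, poly(A)).

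Cytokines of the IL-6 family bind receptor complexes that contain gp130, the signalling chain encoded by Il6st. IL-6 itself uses the chain encoded by Il6ra, leukemia inhibitory factor uses the chain encoded by Lifr, and oncostatin M uses the chain encoded by Osmr. The receptors carry Janus kinases, which phosphorylate STAT3, and STAT3 then enters the nucleus and switches on acute-phase genes in hepatocytes. SOCS3 and SOCS1 are made in response to STAT signals and damp the same receptors and kinases, so their transcripts are commonly read as a sign of recent signalling.

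The libraries held 4024632 to 4134070 counts (Pico), 12013453 to 12352473 counts (V4) and 12348864 to 12858237 counts (TruSeq). In Pico and TruSeq every IL-1β total lay below every saline total. A count of 0 therefore allowed a level of up to 0.726 to 0.745 counts per 1000000 counts of the library (CPM) in Pico, 0.243 to 0.25 CPM in V4 and 0.233 to 0.243 CPM in TruSeq, taking 3 counts as the limit and counting error only. The V4 kit does not mark strand, and its counts joined both strands. Each table was normalized by itself, and the kits also differed in RNA input, read length and sequencer, so that kit and run cannot be told apart. As a check of the tissue, 8 of 8 hepatocyte markers were listed in each kit, with a summed level of 43100 to 111000 CPM over the libraries.

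Promoter stretches are shown for 4 members, Socs3 because it alone held a STAT motif, Stat3 because it rose in all 3 kits, and Osmr and Lifr because these neighbours on chromosome 15 moved in opposite directions. All 10 members matched the RefSeq promoter table (build GRCm38.p6), Lifr with 2 windows, and each of these 11 windows had 1 exact match in the mm9 genome, whose coordinates are given. Each run is read on the gene's own strand and holds no annotated exon of mm9. The Stat3, Osmr and Lifr runs lie upstream of the annotated gene, and the Socs3 run lies inside it, between exons. Capitals mark the letters of a STAT motif.
Socs3, chr11:117830766-117830930, minus strand: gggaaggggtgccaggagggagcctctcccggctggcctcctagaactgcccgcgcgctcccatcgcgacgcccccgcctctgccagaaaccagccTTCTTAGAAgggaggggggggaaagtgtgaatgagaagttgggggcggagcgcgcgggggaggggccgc
Stat3, chr11:100800855-100801104, minus strand: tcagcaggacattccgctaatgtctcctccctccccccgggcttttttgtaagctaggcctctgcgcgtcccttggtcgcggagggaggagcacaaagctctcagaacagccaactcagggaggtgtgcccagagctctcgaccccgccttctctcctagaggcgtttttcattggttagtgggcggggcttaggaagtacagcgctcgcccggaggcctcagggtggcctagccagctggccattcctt
Osmr, chr15:6824314-6824563, minus strand: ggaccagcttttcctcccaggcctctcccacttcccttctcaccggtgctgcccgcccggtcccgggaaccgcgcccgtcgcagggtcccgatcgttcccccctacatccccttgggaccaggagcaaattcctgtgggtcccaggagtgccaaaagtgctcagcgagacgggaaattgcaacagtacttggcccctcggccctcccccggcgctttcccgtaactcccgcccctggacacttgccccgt
Lifr, chr15:7079322-7079558, plus strand: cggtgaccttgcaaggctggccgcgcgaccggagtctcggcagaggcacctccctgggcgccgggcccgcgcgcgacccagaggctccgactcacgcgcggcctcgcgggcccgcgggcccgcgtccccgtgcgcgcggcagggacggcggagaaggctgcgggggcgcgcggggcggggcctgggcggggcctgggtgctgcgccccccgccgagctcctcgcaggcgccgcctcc

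The 250 bases before each RefSeq start were searched on both strands for the STAT motifs TTCNNNGAA and TTCNNNNGAA, each of which reads the same on either strand, and for the NF-kB motif GGGANNTTCC. Only the Socs3 window held a STAT motif, TTCTTAGAA at bases 154 to 146 before the start (chr11:117830826-117830834, between annotated exons of Socs3). The first STAT motif occurred in 7.02% of all 32851 RefSeq windows and the second in 5.85%. The NF-kB motif occurred in the Il6 window, as GGGATTTTCC at bases 44 to 35 before the start, and in 1.21% of all windows. The GC content of the 250 bases was 82.4% for the first Lifr window, 66% for Osmr, 60.8% for Stat3 and 71.6% for Socs3, against a median of 52.4% over all windows. For Il6st the RefSeq start lies upstream of the gene as annotated in mm9 (chr13:113265216-113297068), so its window belongs to another start.

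In each kit the response to IL-1β was fitted across all genes with limma-voom, and a gene is said to have risen or fallen at a Benjamini-Hochberg adjusted p of at most 0.05. Stat3, Osmr, Socs3, Il6st, Jak1 and Jak2 rose and Lifr fell in Pico, which made 6 of 10 members higher, against 6.78% of all genes tested, and 1 lower, against 10.8%. In V4, Stat3, Osmr and Il6ra rose and Lifr fell, that is 3 members higher against 3.6% of all genes and 1 lower against 7.41%. In TruSeq, Stat3, Osmr, Socs3, Il6ra, Il6st and Jak1 rose and Lifr fell, that is 6 members higher against 12.3% and 1 lower against 21.8%. The median log2 fold change of the 10 members was 0.83 (Pico), 0.63 (V4) and 1.18 (TruSeq), and with Il6 and Socs1, the members with the fewest counts, left out (a choice made after seeing the data) it was 0.83, 0.63 and 0.68, beside medians over all genes of -0.12, -0.22 and -0.17. With TMM factors, which take most genes to be unchanged, the medians over all genes moved up by 0.13, 0.17 and 0.16, and the directions of the members did not change. In every kit 8 of the 10 members had at least 10 counts in at least 3 libraries, all but Il6 and Socs1.

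**Figure D1:**
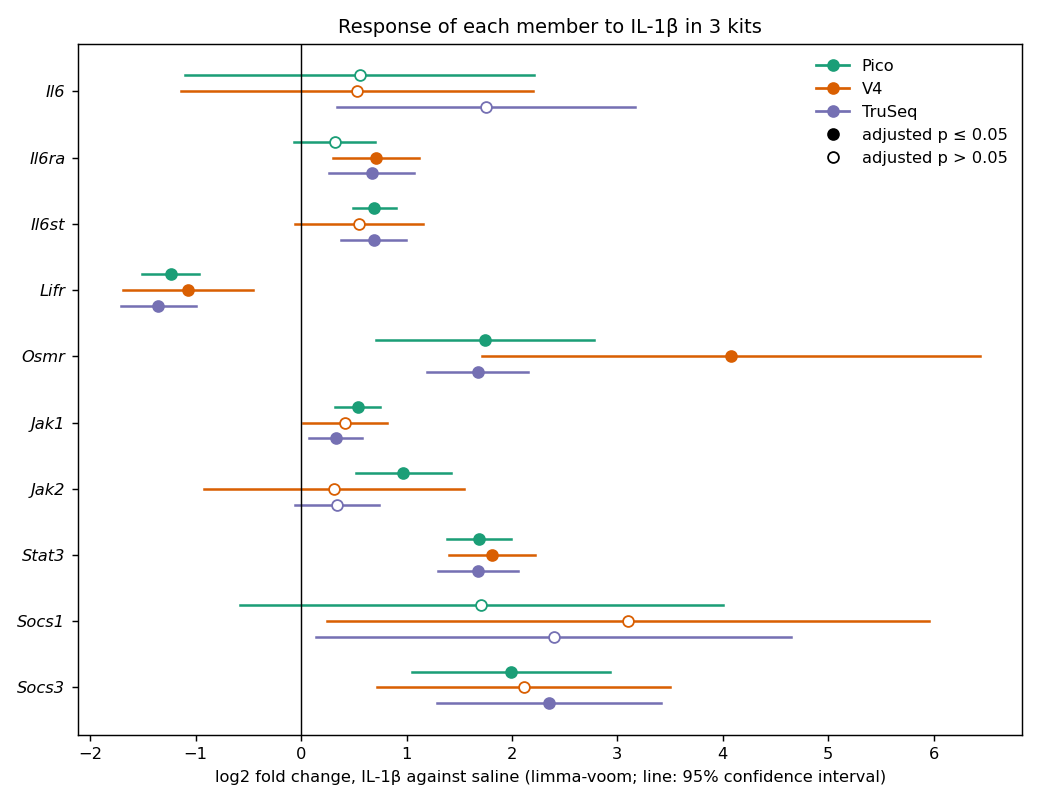
Log2 fold change of IL-1β against saline for the 10 members (rows) in Pico, V4 and TruSeq (colours), as fitted by limma-voom. Lines are 95% confidence intervals and filled points have an adjusted p of at most 0.05. Lifr lies left of 0 in all 3 kits, and Stat3 lies between 1.68 and 1.81 in all 3.

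Among the ligands, Il6 (chr5:30339701-30346508, plus strand) was at or under the limit of 3 counts in every library. Its counts were 1, 0 and 0 in I9579, I9582 and I9583 and 0 in all saline mice in Pico and in V4. In TruSeq they were 2, 1 and 3 in the IL-1β mice and 1, 0 and 0 in the saline mice. The ranges met at 1 count, and no fold change can be given at this depth. limma-voom did not call Il6 in any kit, but called it higher in TruSeq with TMM factors (adjusted p = 0.042) and without U9574 (0.0398). The liver is not the only source of IL-6 in an animal, and the transcript level in liver does not measure the cytokine that reaches it.

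The list of 13 other ligands of the family and its relatives held 9 genes listed in Pico, 6 in V4 and 9 in TruSeq. By limma-voom, edgeR and DESeq2 alike, 0 were called in Pico and V4, where 0 also had an unadjusted p under 0.05. Of all genes, 6.78% in Pico and 3.6% in V4 were higher, and 10.8% and 7.41% lower, by limma-voom. With 9 and 6 genes listed, 0 calls do not set the ligands apart. In TruSeq Osm, which encodes oncostatin M, rose and Ctf1, which encodes cardiotrophin 1, fell. That is 11.1% of the listed ligands in each direction, against 12.3% of all genes higher and 21.8% lower. DESeq2 called 0 ligands of the list higher in TruSeq. Osm had 1 to 3 counts in the IL-1β libraries of TruSeq and 0 in the saline libraries, so this call rests on counts at the limit of detection. Both were named after their values were seen.

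Of the receptor chains, Lifr fell in all 3 kits while Osmr rose. Lifr (chr15:7079559-7147489, plus strand) had 965, 737 and 932 counts in I9579, I9582 and I9583 in Pico, against 2237, 2321 and 1773 in U9574, U9575 and U9576. In V4 the counts were 1139, 1035 and 1181, against 3208, 2846 and 1450, and in TruSeq 2251, 1858 and 2140 against 6434, 6000 and 4245. Every IL-1β library lay below every saline library of its kit, and U9576 was the lowest saline mouse and I9582 the lowest IL-1β mouse in all 3 kits. The log2 fold change was -1.24 (SE 0.128, adjusted p = 4.11e-06) in Pico, -1.07 (SE 0.279, adjusted p = 0.032) in V4 and -1.35 (SE 0.158, adjusted p = 0.000189) in TruSeq, which is 2.36-fold, 2.11-fold and 2.56-fold lower. In V4 the call was lost with TMM factors (log2 fold change -0.90, adjusted p = 0.0841) and on leaving out any 1 of I9579, I9582, I9583, U9574 and U9575 (adjusted p of 0.0869 to 0.14).

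Osmr (chr15:6763577-6824313, minus strand), which lies 255245 bp from Lifr with 0 annotated genes between them, moved the other way. Its counts were 132, 145 and 45 in the IL-1β mice against 18, 40 and 32 in the saline mice in Pico, and 238, 188 and 154 against 69, 65 and 51 in TruSeq. In V4 they were 42, 88 and 92 against 22, 6 and 0. The groups did not overlap in any kit, although I9583 in Pico lay close to the highest saline library. The log2 fold change was 1.75 (SE 0.488, adjusted p = 0.0191) in Pico and 1.67 (SE 0.212, adjusted p = 0.000312) in TruSeq, or 3.36-fold and 3.19-fold. The V4 value of 4.08 (SE 1.07, adjusted p = 0.0333) rested on mean counts of 74.0 ± 27.8 against 9.33 ± 11.4 (SD, n = 3) with 1 saline library at 0. Leaving out 1 library changed the Osmr call in Pico and V4: in Pico it held only without I9583, and in V4 only without I9579 or U9574, while in TruSeq it held in all 6 fits. The V4 call was also lost with the filter of 10 counts in 3 libraries (log2 fold change 4.10, adjusted p = 0.051).

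Il6ra (chr3:89673246-89717084, minus strand), the chain that binds IL-6, and Il6st (chr13, plus strand) changed less. Il6ra had 556, 594 and 581 counts against 340, 348 and 372 in V4, and 815, 1077 and 1152 against 782, 692 and 508 in TruSeq. In Pico it had 311, 441 and 531 against 368, 373 and 290. The groups were apart in V4 and TruSeq and overlapped in Pico, and I9579 was the lowest IL-1β mouse in every kit. The log2 fold changes were 0.32 (SE 0.183, adjusted p = 0.279), 0.71 (SE 0.185, adjusted p = 0.0321) and 0.67 (SE 0.181, adjusted p = 0.0173) in Pico, V4 and TruSeq. The edgeR quasi-likelihood test also called it in Pico (log2 fold change 0.48, adjusted p = 0.0111). Both limma-voom calls depended on single mice, with 1 of 6 fits past the threshold in V4 (the one without U9576) and 2 of 6 in TruSeq (those without I9579 or U9574).

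Il6st had 1813, 1788 and 1726 counts against 1203, 1056 and 1098 in Pico and 3184, 3594 and 2640 against 2289, 1906 and 1813 in TruSeq. The groups were apart in both kits, with a rise of 1.62-fold in Pico (log2 fold change 0.69, SE 0.095, adjusted p = 7.4e-05) and 1.61-fold in TruSeq (0.69, SE 0.137, adjusted p = 0.00377). In V4 the counts of 431, 387 and 506 against 356, 388 and 199 overlapped (log2 fold change 0.55, SE 0.274, adjusted p = 0.249).

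**Figure D2:**
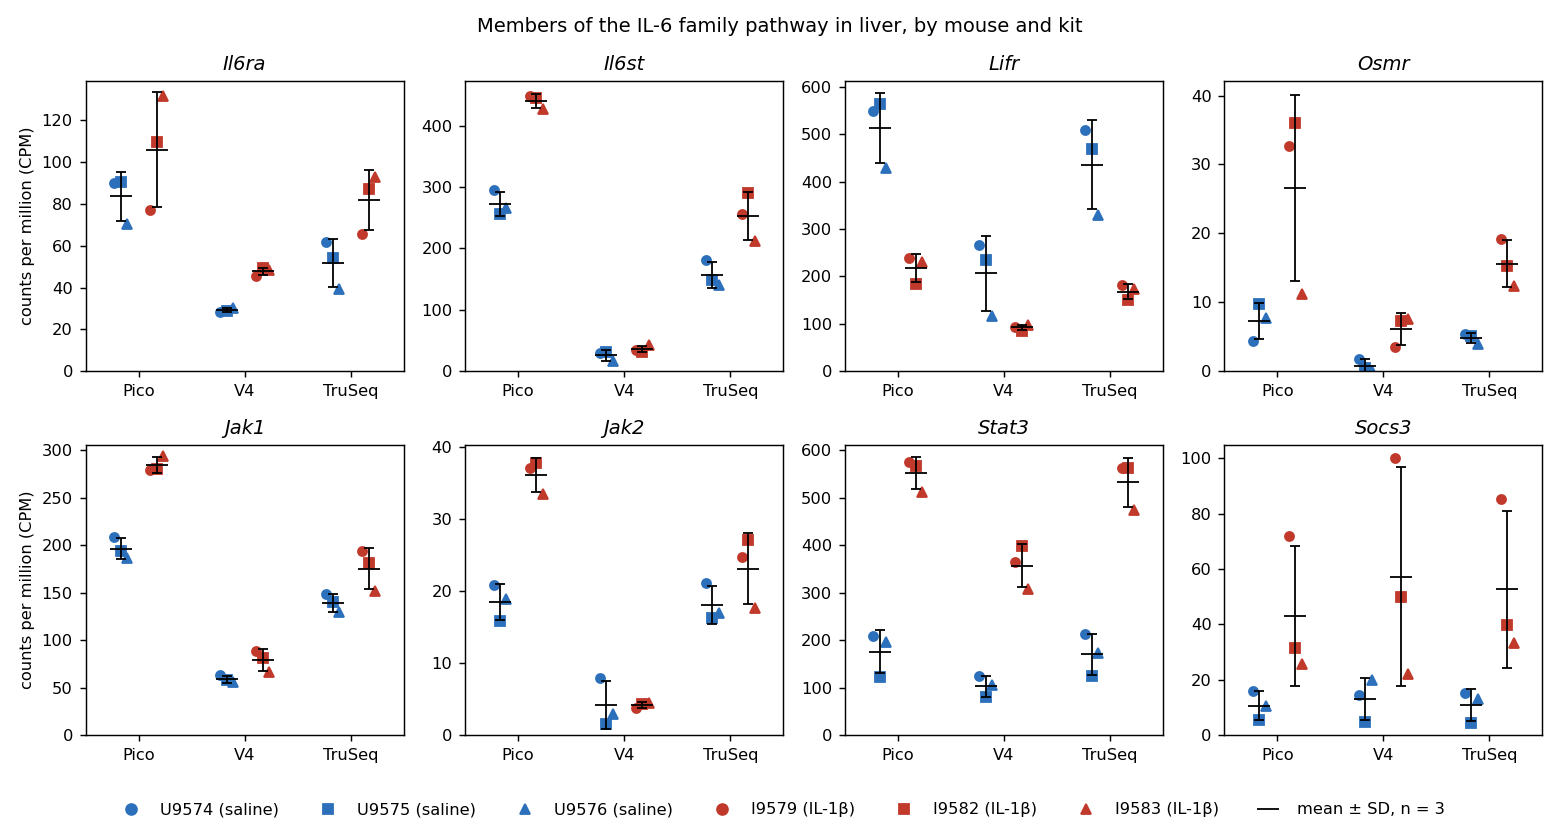
Level in CPM of the 8 members with at least 10 counts in at least 3 libraries, in saline (blue) and IL-1β (red) mice of each kit. Each symbol is 1 library, its shape is the mouse, and black marks are the mean ± SD (n = 3, cut off at 0). Lifr is lower in the IL-1β mice of every kit, Stat3 and Socs3 are higher, and I9579 is the highest mouse for Socs3 in all 3 kits.

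Ratios within a library do not depend on the scaling, and were taken as the log2 of the 2 counts with 0.5 added to each. The ratio of Osmr to Lifr was -2.87, -2.34 and -4.36 in I9579, I9582 and I9583 against -6.92, -5.84 and -5.77 in the saline mice in Pico, and -3.24, -3.30 and -3.79 against -6.53, -6.52 and -6.37 in TruSeq. In V4 it was -4.75, -3.55 and -3.68 against -7.16, -8.78 and -11.5. The means differed by 2.99, 3.03 and 5.16, with no overlap in any kit. The ratio of Lifr to Il6st was lower by 1.93, 1.62 and 2.04 in Pico, V4 and TruSeq, again with no overlap, so that Lifr counts exceeded Il6st counts in every saline library of Pico and TruSeq and lay under them in every IL-1β library of these kits. In V4 Lifr stayed above Il6st in all 6 libraries. These counts are not divided by length, and the exon union of Lifr has 10330 bases against 5207 for Il6st. Which of the 2 stood higher can thus not be read from the counts. Per kilobase the mean of Il6st was above that of Lifr in Pico saline mice too (52.3 against 49.7 CPM, with overlapping ranges).

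Osmr rose relative to Il6st by 3.53 in V4 and 0.98 in TruSeq with no overlap, while in Pico the difference of 1.06 came with overlapping groups. The V4 differences depended on U9576, whose Osmr count was 0: without it they were 2.30 for Osmr to Il6st and 3.98 for Osmr to Lifr, and with 5 added to each count 2.19 and 3.80. The ratio of Il6ra to Il6st differed by -0.38 (Pico), 0.17 (V4) and -0.02 (TruSeq), and the groups overlapped in all 3. With 3 mice against 3 the exact two-sided permutation test cannot go below p = 0.1, which it reached for the 8 ratios without overlap (adjusted p = 0.15 over 12 tests). None of these ratios can pass a threshold of 0.05 in this design.

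**Figure D3:**
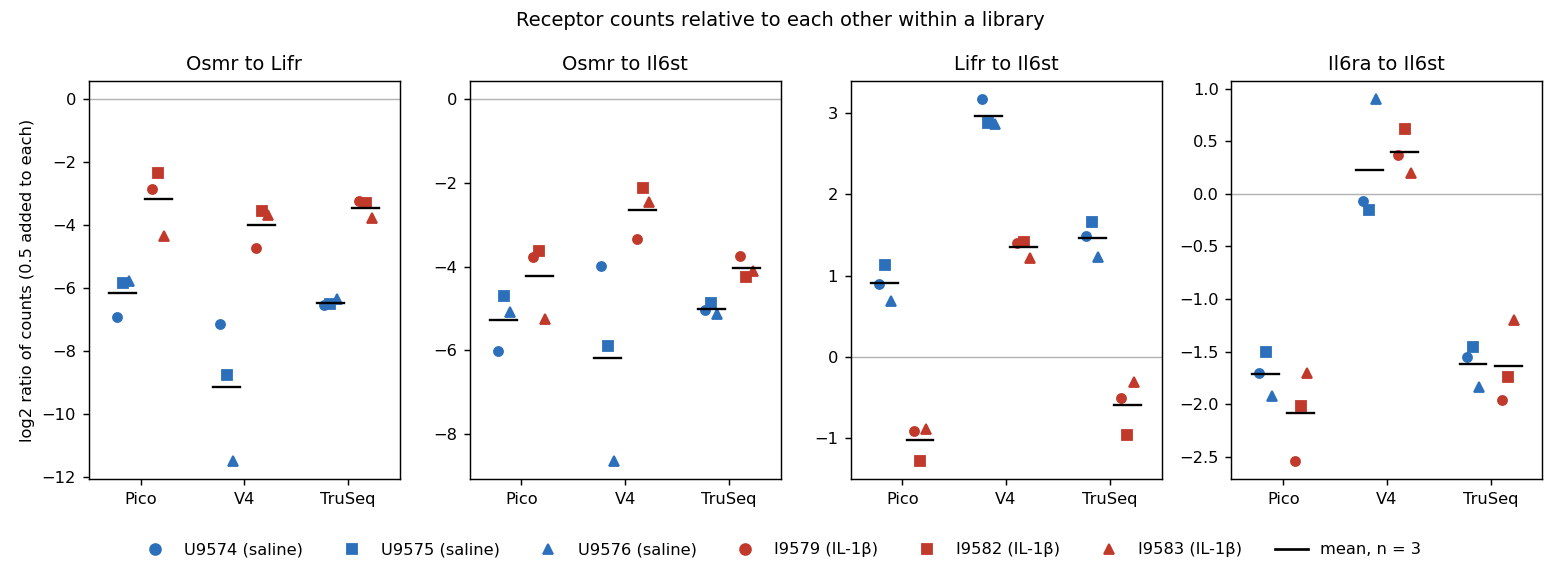
Log2 ratio of the counts of 2 receptor chains within a library, for 4 pairs, in saline (blue) and IL-1β (red) mice of each kit, with the mean of 3 as a black line. Osmr to Lifr is higher and Lifr to Il6st lower in every IL-1β library, and Il6ra to Il6st overlaps in each kit. The vertical scales differ between panels.

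Of the kinases, Jak1 rose in Pico and TruSeq and Jak2 in Pico. Jak1 (chr4:100824972-100937887, minus strand) had 1129, 1127 and 1186 counts against 852, 800 and 769 in Pico, 1080, 983 and 797 against 757, 697 and 684 in V4, and 2403, 2233 and 1880 against 1877, 1793 and 1659 in TruSeq. The groups did not overlap in any kit, yet in TruSeq I9583 lay close to U9574. The log2 fold change was 0.54 (SE 0.103, adjusted p = 0.00146) in Pico, 0.42 (SE 0.181, adjusted p = 0.18) in V4 and 0.33 (SE 0.113, adjusted p = 0.0484) in TruSeq. DESeq2 also called Jak1 in V4 (adjusted p = 0.0207), and the TruSeq call held only without I9583 when 1 mouse was left out.

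Jak2 (chr19:29326318-29387570, plus strand) had 150, 152 and 135 counts against 85, 65 and 78 in Pico, a rise of 1.96-fold (log2 fold change 0.97, SE 0.212, adjusted p = 0.00401) with the groups apart. In TruSeq the counts were 307, 334 and 218 against 267, 208 and 217, and in V4 45, 52 and 53 against 95, 19 and 36. The groups overlapped in both, and U9574 in V4 was above every IL-1β library. Their log2 fold changes were 0.34 (SE 0.178, adjusted p = 0.181) and 0.31 (SE 0.561, adjusted p = 0.754). In TruSeq Jak2 was called with TMM factors (adjusted p = 0.0486), edgeR (0.0331) and DESeq2 (0.0272), and by limma-voom without I9583 (0.0332).

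Stat3 (chr11:100746412-100800854, minus strand) was higher after IL-1β by 3.22-fold (Pico), 3.51-fold (V4) and 3.20-fold (TruSeq). It had 2331, 2280 and 2070 counts in I9579, I9582 and I9583 against 847, 507 and 807 in U9574, U9575 and U9576 in Pico, and 4430, 4797 and 3718 against 1486, 955 and 1303 in V4. In TruSeq the counts were 6975, 6937 and 5871 against 2688, 1603 and 2208. The groups were far apart in each kit, I9583 was always the lowest IL-1β mouse and U9575 the lowest saline mouse. The log2 fold change was 1.69 (SE 0.144, adjusted p = 5.86e-07) in Pico, 1.81 (SE 0.186, adjusted p = 0.000206) in V4 and 1.68 (SE 0.169, adjusted p = 8.4e-05) in TruSeq, and it remained past the threshold in all 6 fits that left out 1 mouse in each kit. A larger log2 fold change was seen in 3.92% (Pico), 3.63% (V4) and 3% (TruSeq) of all genes. Stat3 overlaps Stat5a on the opposite strand by 72 exonic bases and Jak1 overlaps Raver2 by 4, which V4 cannot separate.

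The feedback inhibitor Socs3 (chr11:117827393-117831361, minus strand), whose promoter stretch with the STAT motif is shown above, rose but varied widely between mice. In Pico it had 291, 126 and 104 counts in I9579, I9582 and I9583 against 65, 22 and 44 in the saline mice, in V4 1219, 601 and 264 against 174, 56 and 245, and in TruSeq 1058, 491 and 411 against 191, 54 and 169. I9579 was the highest and I9583 the lowest IL-1β mouse in all 3 kits, U9575 was the lowest saline mouse in all 3, and no groups overlapped. The coefficient of variation among the IL-1β mice was 58.6% (Pico), 69.2% (V4) and 53.8% (TruSeq), against 6.21%, 12.6% and 9.59% for Stat3.

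The log2 fold change of Socs3 was 1.99 (SE 0.443, adjusted p = 0.00453) in Pico, 2.11 (SE 0.631, adjusted p = 0.0552) in V4 and 2.35 (SE 0.474, adjusted p = 0.00407) in TruSeq, that is 3.97-fold, 4.32-fold and 5.10-fold. In V4 it was called by edgeR (adjusted p = 0.00111), DESeq2 (0.0259), limma-voom with TMM factors (0.0392) and limma-voom with genes of at least 10 counts in 3 libraries (0.0435), as well as without I9583 (0.0247). In Pico the call was lost without I9582 (adjusted p = 0.0553), U9575 (0.0644) or U9576 (0.062).

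Socs1 (chr16:10783901-10785629, minus strand) was near the limit of detection in most libraries of Pico and TruSeq, and varied widely among the IL-1β mice of V4 (coefficient of variation 111%). It had 16, 1 and 0 counts against 0, 0 and 1 in Pico, 102, 25 and 8 against 8, 8 and 0 in V4, and 19, 1 and 8 against 1, 0 and 2 in TruSeq. Most of the counts came from I9579, the mouse that was also highest for Socs3, and the groups met or overlapped in each kit. No kit gave a call by limma-voom (adjusted p of 0.332, 0.163 and 0.0981). edgeR and DESeq2 called it higher in V4 (adjusted p = 0.0437 and 0.0181) and in TruSeq (0.0302 and 0.0177), and limma-voom did so in TruSeq without I9582 (0.0164).

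Markers of other cells moved with these changes. The summed level of 8 neutrophil markers was 28.4 to 38.5 CPM in the IL-1β libraries against 0.242 to 1.71 in the saline libraries of Pico, 42.1 to 79 against 2.07 to 4.83 in V4 and 39.3 to 80.3 against 1.79 to 3.24 in TruSeq. S100a8, S100a9 and other members of this list rose, 5 of 5 listed genes in Pico, 5 of 6 in V4 and 5 of 7 in TruSeq, while the granule gene Mpo was at 0 in all 18 libraries. The summed markers of hepatocytes, macrophages, endothelial cells and stellate cells were lower in the IL-1β libraries without overlap in all 3 kits, at 0.695 to 0.787, 0.476 to 0.571, 0.531 to 0.773 and 0.607 to 0.716 times the saline mean. Single markers went the other way: Tat rose in all 3 kits (log2 fold changes of 1.14, 0.98 and 1.28), Hnf4a and Lyve1 in Pico and TruSeq, Cdh5 in Pico and Marco in TruSeq. In Pico most of the hepatocyte sum was Alb (mean of 31900 CPM in the IL-1β mice). Lymphocyte markers summed to at most 6.64 CPM in any library. Their sum in TruSeq was 0.967 to 2.35 CPM in the IL-1β libraries against 3.66 to 5.37 in the saline libraries. There 3 of 8 lymphocyte markers were lower, while the sums overlapped between treatments in Pico and V4. Cholangiocyte markers overlapped between treatments in every kit. The part of these shifts in the changes of Stat3, Socs3, Osmr and Lifr was not tested, and in whole liver fewer cells of a type and less RNA per cell cannot be told apart.

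Levels can be compared between genes only per length, here as CPM per kilobase of the union of annotated exons within 1 kit. In saline mice of TruSeq the highest level was that of Lifr (42.2 ± 9.06, SD, n = 3), which overlapped that of Il6st (30.1 ± 4.05). Then came Jak1 (19.3 ± 1.34), Stat3 (17.8 ± 4.58) and Il6ra (15.5 ± 3.39), which overlapped each other in turn, then Socs3 (3.74 ± 2.01) and Jak2 (3.59 ± 0.524), which also overlapped, and then Osmr (0.9995 ± 0.16). Socs1 and Il6 were lowest at 0.0641 and 0.0242.

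In IL-1β mice of TruSeq the order was led by Stat3 (55.9 ± 5.36) and Il6st (48.7 ± 7.53), whose ranges overlapped. Il6ra (24.5 ± 4.3), Jak1 (24.3 ± 2.97), Socs3 (18.2 ± 9.8) and Lifr (16.3 ± 1.53) followed with overlapping neighbours, so that Lifr moved from the first place to the sixth. Below them stood Jak2 (4.59 ± 0.981) and Osmr (3.23 ± 0.701), which overlapped, and then Socs1 (0.616 ± 0.598) and Il6 (0.148 ± 0.074). Osmr, although it rose, remained below Lifr and Il6st in every kit and treatment.

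The rank of Il6st depended on the kit. It was first in Pico with IL-1β (84.5 ± 2.12) and with saline (52.3 ± 3.85), where its range overlapped that of Lifr, and second in TruSeq, but in V4 it was the sixth with IL-1β (7.01 ± 0.966) and the fifth with saline (4.98 ± 1.65). Per length of the longest transcript it came second in Pico, behind Stat3 with IL-1β (91.3 against 84.5) and behind Lifr with saline (53.2 against 52.3). Stat3 with IL-1β was second in Pico (57.9 ± 3.6) and first in V4 (37.4 ± 4.73). Taking the longest transcript in place of the exon union raised the level of Stat3 in TruSeq with IL-1β from 55.9 to 88.1, since its 14 annotated transcripts give an exon union of 9527 bases and the longest has 6042.

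**Figure D4:**
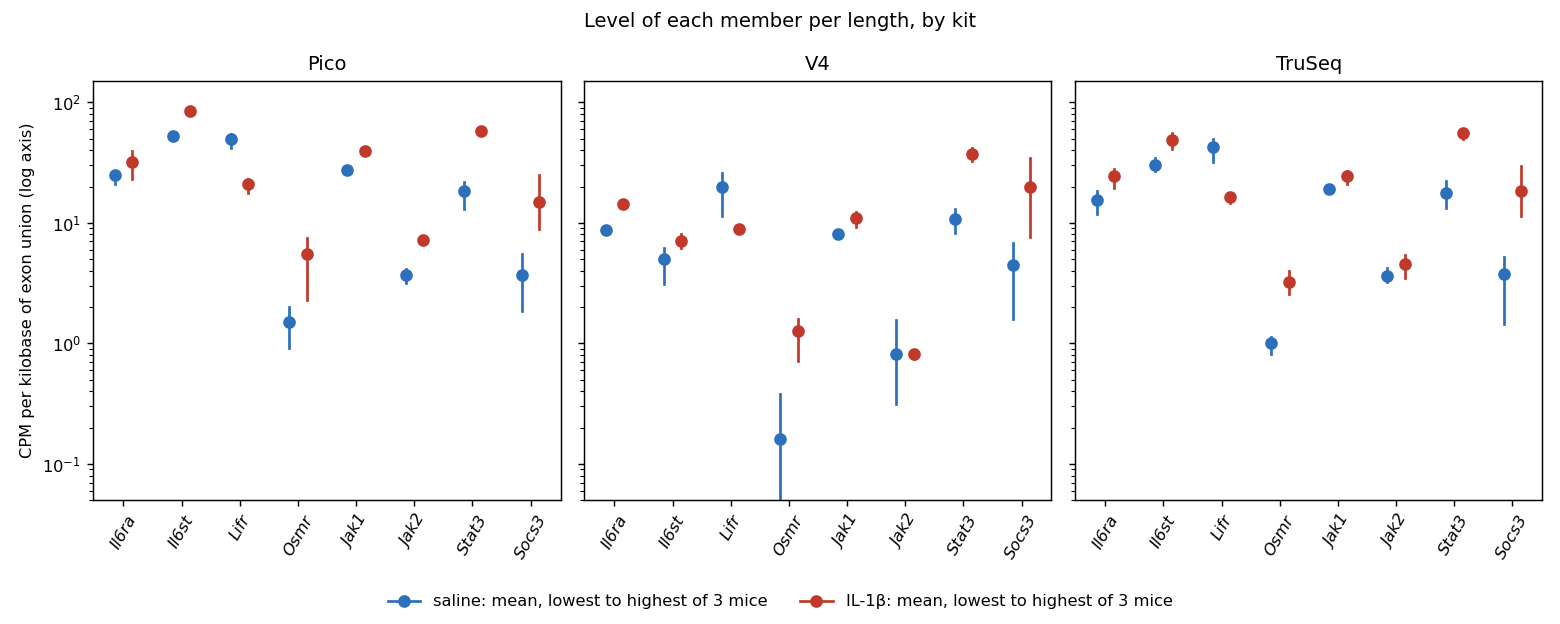
Level of 8 members per length (CPM per kilobase of exon union, log axis) in Pico, V4 and TruSeq. Points are means and lines run from the lowest to the highest of 3 mice, in saline (blue) and IL-1β (red). The lowest saline value of Osmr in V4 is 0 and its line is cut off at the axis. In TruSeq Lifr is first with saline and the sixth with IL-1β, and Il6st stands lower among the members in V4 than in Pico.

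The difference in response between kits was tested as the interaction of kit and treatment in limma-voom over the 12 libraries of 2 kits. For Pico against TruSeq 0 of 10 members were called, against 0.0% of 17207 genes, for V4 against TruSeq 0 of 10 against 0.0% of 17147 genes, and for Pico against V4 0 of 10 against 0.0% of 16395 genes. At an unadjusted p under 0.05 there were 1, 1 and 0 members and 945, 1090 and 900 genes, respectively. With the mouse as a replicate block there were 2, 0 and 0 members and 1278, 1263 and 1022 genes. The fits with TMM factors, with the filter on low counts and with the mouse as a replicate block also called 0 members. Thus a member called in 1 kit only, such as Jak2 in Pico, was not shown to respond differently there.

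The Jak2 difference of Pico minus TruSeq was 0.63 on the log2 scale (SE 0.282, 95% confidence interval 0.03 to 1.22, unadjusted p = 0.0394, adjusted p = 0.9, limma-voom), and 0.61 with the mouse as a block (interval 0.15 to 1.07, adjusted p = 0.641). The Osmr difference of V4 minus TruSeq was 2.41 (SE 0.997, interval 0.27 to 4.54, unadjusted p = 0.0298, adjusted p = 0.697, limma-voom), and with the block its interval included 0 (1.93, -0.39 to 4.26, adjusted p = 0.783). For Il6ra, Pico minus TruSeq was -0.35 without the block (interval -0.94 to 0.24) and -0.33 with it (interval -0.62 to -0.04, adjusted p = 0.666). For Stat3 the interval of the difference was -0.50 to 0.53 for Pico minus TruSeq and -0.43 to 0.70 for V4 minus TruSeq, and for Lifr -0.36 to 0.59 and -0.48 to 1.03. The intervals for Socs3 were wider, at -2.08 to 1.35 and -2.27 to 1.79. With the mouse as a replicate block they narrowed to -0.79 to 0.22 and -0.93 to 0.58 for Socs3 and to -0.18 to 0.20 and -0.09 to 0.37 for Stat3.

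The order of the mice by CPM was the same in all 3 kits in 4 of 17 cases (a member in 1 treatment group, without ties) and not in 13. The saline order U9574, U9576, U9575 from high to low was shared by all 3 kits for Stat3 and for Jak2, and the order U9574, U9575, U9576 for Jak1. Among the IL-1β mice the order I9579, I9582, I9583 was shared by all 3 kits for Socs3, and I9583 was the lowest for Stat3 in all 3. The order of the IL-1β mice for Osmr differed in each kit.

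Over the 18 libraries, with log2 CPM centred within each kit and 8960 genes compared, the profile of Stat3 was most like those of Ifi47 (Pearson r = 0.993), Mt2 (0.986) and Stap2 (0.984). The profile of Socs3 was most like those of Igfbp1 (0.978), Junb (0.976) and Fdps (0.964), and that of Il6ra most like those of Angptl4 (0.921), Ehd4 (0.892) and Slc16a10 (0.885). Lifr was most like Slc17a3 (0.983), Rbbp4 (0.981) and AI182371 (0.977). These values are descriptive, since the 18 libraries come from 6 mice and the treatment itself sets most of each profile. The genes named need not change by the same amount, as Mt2 had log2 fold changes of 6.92 to 7.01 and Fdps of 0.72 to 0.88.

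The 20 genes of a textbook list of STAT3 targets in liver were followed beside the members. In each kit 16 of 20 were higher and 0 lower, the same 16 in all 3 (and 0 lower at an unadjusted p under 0.05, by edgeR or by DESeq2), with a median log2 fold change of 1.80 (Pico), 1.89 (V4) and 2.01 (TruSeq), read against the 6.78%, 3.6% and 12.3% of all genes called higher. A2m, which encodes the protease inhibitor alpha-2-macroglobulin, went from 0 to 1 counts in the saline libraries of Pico to 381 to 666 in the IL-1β libraries, from 0 to between 322 and 651 in V4, and from 0 to 3 to between 1736 and 2564 in TruSeq. Il1rn, which encodes the IL-1 receptor antagonist, rose from 7 to 23 counts to 1080 to 2194 in TruSeq (log2 fold change 6.93, SE 0.578, adjusted p = 2.9e-05).

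Serpina3n, a serine protease inhibitor of the acute phase, rose from 4808 to 6021 counts to 88849 to 108089 in TruSeq (log2 fold change 4.19). Timp1, an inhibitor of metalloproteinases, had 0 to 2 counts in the saline libraries of TruSeq and 77 to 113 in the IL-1β libraries. Lbp, which binds lipopolysaccharide, and Hpx, which binds haem, had log2 fold changes of 2.34 and 2.19 in TruSeq. The 4 genes of the list that were called in no kit were Pim1, Mcl1, Myc and Ccnd1. Many of these genes also answer to other transcription factors, so their rise does not measure STAT3 activity.

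The list of 19 other inhibitors and phosphatases also held the proteases Adam10 and Adam17. Of these, Adam17 rose in Pico and TruSeq (log2 fold changes of 0.57 and 0.60). With both counted, Pico had 4 higher and 0 lower, V4 had 3 higher and 1 lower, and TruSeq had 4 in each direction. These are 21.1%, 15.8% and 21.1% higher, against 6.78%, 3.6% and 12.3% of all genes, and 0%, 5.26% and 21.1% lower, against 10.8%, 7.41% and 21.8%, so that the share lower in TruSeq was near that of all genes. For the 0 lower in Pico, 2 had an unadjusted p under 0.05, and edgeR called 1 and DESeq2 0. The 3 genes that rose in all 3 kits were Socs2, a SOCS protein best known for limiting growth hormone signals, and Ptpn1 and Ptpn2, phosphatases that act on Janus kinases and STATs. Ptpn1 had 567 to 622 counts against 128 to 149 in Pico, 1928 to 2170 against 405 to 510 in V4 and 1703 to 1831 against 326 to 390 in TruSeq. Its log2 fold changes of 2.16 (SE 0.155), 2.22 (SE 0.174) and 2.32 (SE 0.105) came with less spread than those of Socs3 (adjusted p = 8.69e-08, 3.25e-05 and 1.07e-06 by limma-voom). Socs2 had log2 fold changes of 2.13, 1.52 and 1.77, and Ptpn2 of 1.26, 1.58 and 1.51.

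Of 18 other cytokine receptors, Pico had 4 higher and 2 lower, V4 had 0 higher (2 at an unadjusted p under 0.05, 1 by edgeR and 1 by DESeq2) and 1 lower, and TruSeq had 4 higher and 3 lower. Il27ra, 1 of the 4 higher in Pico, had 2 to 4 counts in its IL-1β libraries and 0 in its saline libraries. This call rests on counts near the limit of detection, and Il27ra was named after its values were seen. Its log2 fold change was -2.96 in V4 and -0.33 in TruSeq, not called in either. edgeR and DESeq2 each called 3 receptors higher in Pico. The shares of listed receptors higher in Pico, V4 and TruSeq were 23.5%, 0% and 22.2%, against 6.78%, 3.6% and 12.3% of all genes. The shares lower were 11.8%, 5.88% and 16.7%, near or below the 10.8%, 7.41% and 21.8% of all genes. Ghr, the growth hormone receptor, fell in all 3 kits, by 0.72, 0.63 and 0.89 on the log2 scale (adjusted p = 6.23e-05, 0.0243 and 0.000525 by limma-voom), although edgeR and DESeq2 called 0 receptors of the list lower in V4. Il11ra1 and Il11ra2 are near-identical copies whose counts are uncertain. Of the 8 other kinases and STATs, Pico had 2 higher and 1 lower, V4 had 0 called by limma-voom, edgeR or DESeq2 (1 lower at an unadjusted p under 0.05), and TruSeq had 3 higher and 2 lower. The shares lower, 12.5% in Pico and 25% in TruSeq, were near those of all genes. The shares higher in Pico, V4 and TruSeq were 25%, 0% and 37.5% of 8 genes, against 6.78%, 3.6% and 12.3% of all genes. No gene of these 8 passed in all 3 kits. The median log2 fold changes of the receptors were -0.08, -0.05 and -0.03 and those of the kinases and STATs -0.04, 0.08 and -0.07, near the medians over all genes.

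**Figure D5:**
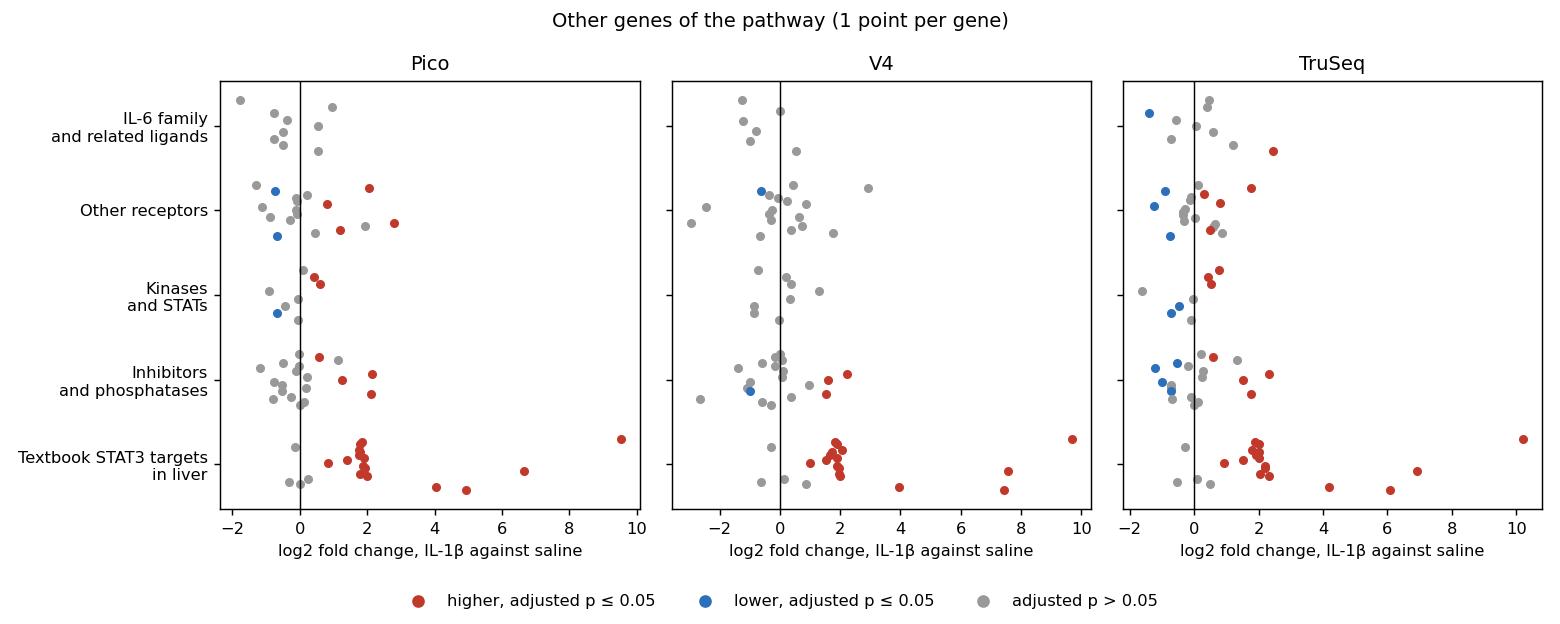
Log2 fold change of IL-1β against saline for each listed gene of 5 lists (rows, 1 point per gene) in Pico, V4 and TruSeq. Red and blue points passed an adjusted p of 0.05 as higher or lower, and grey points did not. The STAT3 target list holds 16 red points in each kit, and the other lists scatter about 0.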

How the data were processed

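Livers of 3 IL-1β and 3 saline mice were each profiled with the Pico, V4 and TruSeq kits. Reads were aligned by the authors to mm9 with GSNAP. The authors then removed ribosomal reads, normalized the rest by resampling within each kit and counted them per gene with PORT, so the deposited values are whole-read counts, of the sense strand in Pico and TruSeq and of both strands in V4. The floors cover counting error only, and no molecular identifiers were used. The confidence intervals come from the limma-voom fits and include the spread between mice. Which of the Pico runs the table holds is not given in the sources used here.

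Each kit was fitted with limma-voom (limma 3.58.1, R 4.3.3) with library totals and genes detected in any library, with Benjamini-Hochberg adjustment over all genes. Kit by treatment interactions were fitted on 12 libraries. Alternatives were TMM factors, edgeR 4.0.16 (quasi-likelihood), DESeq2 1.42.0, a filter of 10 counts in 3 libraries, leaving out each mouse, thresholds of 0.01 and 0.1, other pseudocounts (1 and 5), and the longest transcript. The fits were tested on simulated data. Positions and lengths are those of GENCODE vM1 on mm9. Summaries used Python 3.11.15.

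The mouse pairs the libraries, since the RNA came from the same animals. Deviations from the group means correlated at 0.0591 to 0.406 for the same mouse between kits and at -0.321 to -0.02 for different mice. The deviations of the 3 mice in a group sum to 0 for each gene. Positive values for the same mouse thus partly fix negative values for different mice. All 10 members are named, pathway genes were named if called in the same direction in all 3 kits (at most 6 a list, by mean log2 fold change), and the 3 most alike profiles were taken for Stat3, Socs3, Il6ra and Lifr among genes whose mean reached 20 counts in each of the kits. Members, lists and tests were chosen with earlier results of these data known, and the motifs after the values of the members were seen.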

Additional observations from a re-analysis of the deposited data

How the results depend on the processing

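Directions of the members were the same under all alternatives except for Jak2 in V4, whose log2 fold change of 0.31 ran from -0.21 to 0.93 on leaving out 1 mouse and was negative without U9575. Refits of single members kept direction and side of the threshold in 240 cases, lost the call in 33 and gained it in 18. In V4 the count of 3 members higher became 5 with edgeR, 6 with DESeq2, 1 at an adjusted p of at most 0.01, and 1 to 2 on leaving out 1 mouse, and the count of 1 member lower became 0 with TMM factors, 0 at 0.01 and 0 to 1 without 1 mouse. The 6 members higher in TruSeq became 8 with TMM factors, edgeR or DESeq2, 4 at 0.01, and 4 to 6 without 1 mouse. The 6 members higher in Pico became 7 with edgeR, 5 at 0.01, and 4 to 6 without 1 mouse. The median log2 fold change of the members in TruSeq was 1.18, and 0.68 with Il6 and Socs1 left out, a choice made after seeing the data. Pathway genes lower in Pico numbered 3, but 1 with TMM factors, 1 at 0.01 and 1 to 3 without 1 mouse. Pathway genes lower in V4 numbered 2, but 0 with TMM factors, 0 with edgeR, 1 with DESeq2, 4 with the filter, 0 at 0.01 and 0 to 3 without 1 mouse. The log2 ratio of Il6ra to Il6st changed sign in V4 (-0.023 to 0.51, negative without U9575) and TruSeq (-0.24 to 0.15) on leaving out 1 mouse. The causes were not tested. With the mouse as a replicate block, 0 members differed in response between kits, as without it, and over all genes 1 was called for Pico against TruSeq in place of 0. Within a kit each mouse has 1 library, so no block could be fitted there. With 2 mice left in a group, the spread is shared across genes. At these depths Il6 and Socs1 in every kit, and Osmr and Jak2 in V4, rest on few counts.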
